A study of Mus musculus with 30 samples.

Results

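The mutant thymocyte-only Ikaros regions are stretches of the mouse genome that appeared as an Ikaros peak in thymocytes homozygous for the G158R substitution of Aiolos and in no other deposited Ikaros list. A region of the mutant thymocyte list was kept when it shared no base pair with any region of the wild-type (WT) thymocyte list, the WT pre-B list or the mutant pre-B list. The rule kept 4547 of the 8221 regions in the mutant thymocyte list, or 55.3%. The WT thymocyte list held 3572 regions, the WT pre-B list 3683 and the mutant pre-B list 8609. The members were thus chosen by the peak calls of these 4 lists, which rest on measured ChIP signal, and their fold, width and exclusivity are given below as a description and were not tested.

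All mice were C57BL/6. WT mice were Ikzf3+/+, heterozygous mice Ikzf3+/m and homozygous mutant mice Ikzf3m/m, where m is the G158R allele of Ikzf3, the gene that encodes Aiolos. Antibodies to Ikaros or to Aiolos were used to map bound chromatin by ChIP-seq (immunoprecipitation followed by sequencing) in thymocytes and pre-B cells of WT and Ikzf3m/m mice. Those pre-B cells had been expanded from B220+ IgM- marrow cells over Tst-4 stroma in the presence of IL-7, SCF and Flt3L. Messenger RNA was profiled at 2 stages of B cell development after flow sorting from marrow, pre-pro B and pre-B, with 3 libraries for each of the WT, heterozygous and homozygous genotypes at each stage. Each ChIP list came from 1 library, so a difference between lists has no replicate check. No RNA from thymocytes was analysed here, so the labelled cell type of the ChIP samples could be set only against where Ikaros regions lay, not against marker transcripts. The labels do not say how many mice gave each thymocyte sample.

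Ikaros, encoded by Ikzf1, and Aiolos are sister zinc finger proteins that bind DNA with a GGGAA core through their amino-terminal fingers and form dimers with themselves and with each other through their carboxy-terminal fingers. Ikaros is abundant in thymocytes, where it is required for normal T cell differentiation and sets the threshold of T cell receptor signalling. Both proteins associate with the nucleosome remodelling and deacetylase complex, and Aiolos is best known for its role in B cells.

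The promoters below lay wholly or in large part inside the regions. Each is the RefSeq sequence (GRCm38.p6, the assembly of the mm10 lists) from 250 bases before to 50 bases after an annotated start site, read on the strand of the gene, in lower case with each GGGAA or its reverse complement TTCCC in capitals. The first 4 belong to strong regions that held a start site, all among the 10 highest folds of the class, and the last 5 to genes of T cell receptor signalling and T cell identity, which were chosen after their values were seen.
Arpc5: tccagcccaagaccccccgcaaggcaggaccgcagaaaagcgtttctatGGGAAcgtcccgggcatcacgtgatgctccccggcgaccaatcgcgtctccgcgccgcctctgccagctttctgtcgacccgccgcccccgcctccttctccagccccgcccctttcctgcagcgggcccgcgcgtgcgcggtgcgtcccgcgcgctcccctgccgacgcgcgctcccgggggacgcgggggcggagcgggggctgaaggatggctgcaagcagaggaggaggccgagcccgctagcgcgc
Hibadh: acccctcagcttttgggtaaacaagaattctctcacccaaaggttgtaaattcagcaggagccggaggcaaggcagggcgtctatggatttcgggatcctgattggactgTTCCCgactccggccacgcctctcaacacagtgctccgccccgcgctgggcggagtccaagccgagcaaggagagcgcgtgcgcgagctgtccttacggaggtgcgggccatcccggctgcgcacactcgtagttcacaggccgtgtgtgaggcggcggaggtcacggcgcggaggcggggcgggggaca
Creb1: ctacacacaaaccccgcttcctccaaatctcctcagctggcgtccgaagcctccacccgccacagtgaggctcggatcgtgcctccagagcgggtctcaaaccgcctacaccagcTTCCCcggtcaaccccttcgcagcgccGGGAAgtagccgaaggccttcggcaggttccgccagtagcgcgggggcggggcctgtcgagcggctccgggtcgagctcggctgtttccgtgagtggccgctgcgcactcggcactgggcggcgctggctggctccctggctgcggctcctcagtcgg
Axin2: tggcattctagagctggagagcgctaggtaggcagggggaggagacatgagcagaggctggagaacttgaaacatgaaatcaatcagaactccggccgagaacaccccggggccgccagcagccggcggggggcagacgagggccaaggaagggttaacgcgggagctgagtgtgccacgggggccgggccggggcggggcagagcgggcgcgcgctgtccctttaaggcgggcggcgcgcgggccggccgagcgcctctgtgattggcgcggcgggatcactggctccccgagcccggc
Cd3g: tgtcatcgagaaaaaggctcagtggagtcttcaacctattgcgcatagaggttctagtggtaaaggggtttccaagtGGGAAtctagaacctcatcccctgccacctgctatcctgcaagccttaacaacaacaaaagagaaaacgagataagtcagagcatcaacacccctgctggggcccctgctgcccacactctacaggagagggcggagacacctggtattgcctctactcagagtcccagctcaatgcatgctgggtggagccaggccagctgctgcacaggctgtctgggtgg
Zap70: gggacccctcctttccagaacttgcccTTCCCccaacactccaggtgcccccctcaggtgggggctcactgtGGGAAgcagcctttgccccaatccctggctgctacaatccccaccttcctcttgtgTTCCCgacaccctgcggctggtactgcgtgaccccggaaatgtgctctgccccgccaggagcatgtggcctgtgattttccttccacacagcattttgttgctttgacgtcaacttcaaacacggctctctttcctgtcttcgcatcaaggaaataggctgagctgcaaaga
Lat: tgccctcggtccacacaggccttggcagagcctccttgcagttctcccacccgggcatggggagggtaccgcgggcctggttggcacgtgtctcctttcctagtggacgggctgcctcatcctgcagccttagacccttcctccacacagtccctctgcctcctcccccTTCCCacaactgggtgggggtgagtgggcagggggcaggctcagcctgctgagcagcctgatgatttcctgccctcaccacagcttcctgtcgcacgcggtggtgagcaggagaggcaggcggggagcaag
Lck: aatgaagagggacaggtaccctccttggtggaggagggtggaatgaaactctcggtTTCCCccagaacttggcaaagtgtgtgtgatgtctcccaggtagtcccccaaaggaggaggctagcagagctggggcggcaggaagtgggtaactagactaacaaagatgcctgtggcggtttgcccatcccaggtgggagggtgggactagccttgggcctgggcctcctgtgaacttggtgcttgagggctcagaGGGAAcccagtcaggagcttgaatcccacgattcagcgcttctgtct
Tcf7: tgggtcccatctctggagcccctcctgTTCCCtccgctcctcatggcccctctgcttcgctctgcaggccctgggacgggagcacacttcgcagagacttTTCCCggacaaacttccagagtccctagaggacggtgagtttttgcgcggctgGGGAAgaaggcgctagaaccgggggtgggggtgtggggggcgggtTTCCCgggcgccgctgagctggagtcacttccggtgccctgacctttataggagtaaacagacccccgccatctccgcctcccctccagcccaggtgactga

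The Arpc5 promoter (chr1:152766292-152766591, plus strand) lay wholly inside its region and held 1 match to the core. Arpc5 encodes a subunit of the actin-nucleating Arp2/3 complex. The Hibadh promoter (chr6:52640251-52640550, minus strand) held 1 match, and Hibadh encodes a mitochondrial enzyme of valine breakdown. The Creb1 promoter (chr1:64532554-64532853, plus strand) held 2 matches, and Creb1 encodes a cyclic AMP-responsive transcription factor. The Axin2 promoter (chr11:108920099-108920398, plus strand) held 0 matches, of which nothing follows for the rest of its region, which is wider than the window. Axin2 encodes a feedback inhibitor of Wnt signalling.

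The T cell promoters were those of Cd3g (chr9:44980382-44980681, minus strand, 1 match), Zap70 (chr1:36761548-36761847, plus strand, 3 matches), Lat (chr7:126369519-126369818, minus strand, 1 match), Lck (chr4:129558323-129558622, minus strand, 2 matches) and Tcf7 (chr11:52282546-52282845, minus strand, 4 matches). A second Tcf7 start in the same region has a window (chr11:52282965-52283264) with 1 match, which is not printed. Of the 300 bases per printed window, the region held 286 for Hibadh, 248 for Axin2, 266 for Zap70 and 283 for Lat. The other printed windows lay wholly inside their regions. The first of the Zap70 matches lay outside its region. Cd3g encodes a signalling chain of the T cell receptor complex, Lck and Zap70 encode its proximal kinases, Lat its adaptor, and Tcf7 the transcription factor TCF1. Over all 1550 promoter windows that lay at least 50% inside a mutant thymocyte-only region, 70.3% (95% exact binomial interval 68.0 to 72.6) held the GGGAA core on either strand. Of all 21262 promoter windows in the table, 63.0% held it. A longer form that contains the core, TGGGAA, was in 23.1% of these windows and in 24.5% of all windows. Also read on both strands, the ETS core CCGGAAG was in 22.8% against 11.6%, and the RUNX core TGTGGT in 8.0% against 14.97%. The windows inside the regions were also richer in G and C, with a median of 65.3% against 56.3% and a median of 26 against 13 CpG dinucleotides. The part of base composition in the motif shares was not tested. Among the 221 windows inside regions shared by WT and mutant thymocytes, 73.8% held GGGAA, 32.6% TGGGAA, 21.3% the ETS core and 13.6% the RUNX core. Their median was 63.0% G and C. Among the 344 windows inside mutant-only regions of both cell types, these shares were 70.9%, 20.1%, 31.4% and 7.56%, at a median of 64.3%. The ETS and RUNX shares of the class were thus not particular to it.

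Most mutant thymocyte-only regions were weak, and their median width was below that of the other classes of the same list. Fold, the authors' ratio of ChIP signal to the peak caller's background, had a median of 3.91, an interquartile range of 3.51 to 4.45 and a full range of 2.15 to 13.7. A fold below 5 was found for 87.6% of them, and 20 regions had a fold of 8 or more. Width had a median of 344 bp, an interquartile range of 243 to 537 bp and a full range of 183 to 3112 bp, and the regions covered 2023443 bp together. The median −log10 q-value was 3.34, and the lowest 1.15. In the same library, the 754 regions that the mutant lists of both cell types shared and no WT list held had a median fold of 5.27 and a median width of 503 bp. The 1294 regions shared by WT and mutant thymocytes but by neither pre-B list stood at 4.81 and 430.5 bp, and the 977 regions in all 4 Ikaros lists at 6.32 and 596 bp. Outside that library, the whole WT thymocyte list had a median width of 334 bp and the regions of mutant pre-B cells only 272 bp.

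The share of regions found only in mutant thymocytes therefore changed along the fold scale of the list. Below a fold of 3, 30 of 77 mutant thymocyte regions (39.0%) were absent from the other 3 lists. Of the 1305 regions with a fold from 3 to 3.5, 82.8% were absent from them. That share was 60.5% from 4 to 5, 16.4% from 6 to 8 and 0.545% at 10 or more, where 2 of 367 regions were of this class. The WT thymocyte list was the shorter of the pair, and 2817 of its 3572 regions, or 78.9%, overlapped the mutant thymocyte list. How much of the class reflects regions just below the calling threshold in WT thymocytes was not tested, since no read signal was analysed.

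**Figure D1:**
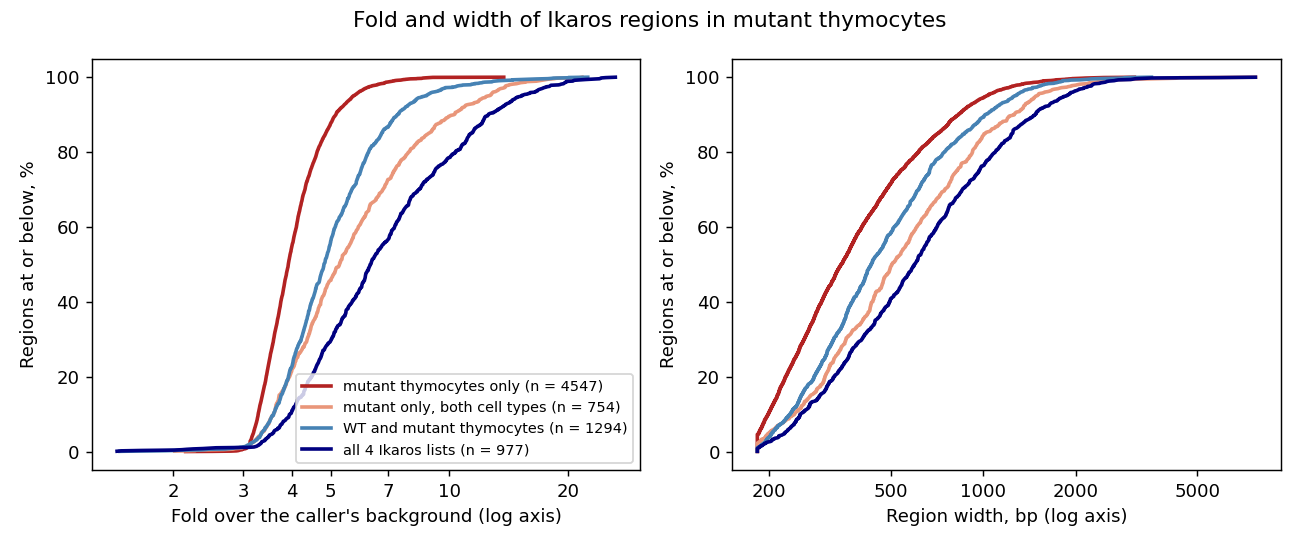
Cumulative share of regions in the mutant thymocyte Ikaros list by fold (left, log axis) and width in bp (right, log axis), 1 line per class, each value being 1 region of 1 library. The curve of the mutant thymocyte-only class rises first, with a median fold of 3.91 and a median width of 344 bp, and that of the regions in all 4 lists rises last, at 6.32 and 596 bp.

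At the edge of the rule, the 3 members closest to a region of another Ikaros list missed it by 9, 17 and 50 bp. Their folds were 3.21 (chr16:11322796-11323308), 3.31 (chr11:20741006-20741777) and 3.23 (chr9:124423217-124423678). The 3 regions that were dropped with the smallest overlaps shared 3, 15 and 15 bp with another list and had folds of 3.34, 3.69 and 3.58. In all, 661 regions were dropped on overlaps that each covered less than 50% of the region. Of the members, 96 (2.11%) had a region of another Ikaros list within 1 kb, and 947 (20.8%) within 10 kb. A second member lay within 10 kb of 651 members (14.3%).

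The class lay mainly in genes and at their starts. Of the 4547 regions, 3361 (73.9%, 95% exact binomial interval 72.6 to 75.2) overlapped the body of a protein-coding gene, and 85.2% lay in a gene or within 10 kb of one. These intervals cover the counting of regions in 1 library and no difference between animals. The gene-body share was 70.4% (67.0 to 73.7) for mutant-only regions of both cell types, 56.6% (53.8 to 59.3) for regions of WT and mutant thymocytes, 56.2% (53.0 to 59.3) for regions of all 4 lists and 42.2% (40.6 to 43.8) for the 3789 regions found only in mutant pre-B cells. The reference table gives no exon positions, so exons, introns and untranslated regions were not told apart.

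The class often lay at start sites, as did the mutant-only regions of both cell types. A start site lay in or within 1 kb of 2488 of the 4544 regions on assembled chromosomes, or 54.8% (53.3 to 56.2). That share was 49.9% (46.3 to 53.6) for mutant-only regions of both cell types, 24.3% (21.9 to 26.7) for WT and mutant thymocyte regions, 23.0% (20.4 to 25.8) for regions of all 4 lists and 6.34% (5.58 to 7.16) for regions of mutant pre-B cells only. These intervals again cover only the counting of regions in 1 library, and the difference between classes was not tested. A start lay inside the region for 32.0% (30.6 to 33.4) of the class, fewer than the 37.2% (33.7 to 40.7) of the mutant-only regions of both cell types. The median distance from a region's centre to the nearest start was 524.5 bp, against 1234 bp, 15851 bp, 12378 bp and 27918.5 bp in the same order. Within 250 bp of a start lay 38.6% of the centres in the class and 38.2% in the mutant-only class of both cell types, but 17.0% of the WT and mutant thymocyte class and 1.45% of the mutant pre-B-only class.

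**Figure D2:**
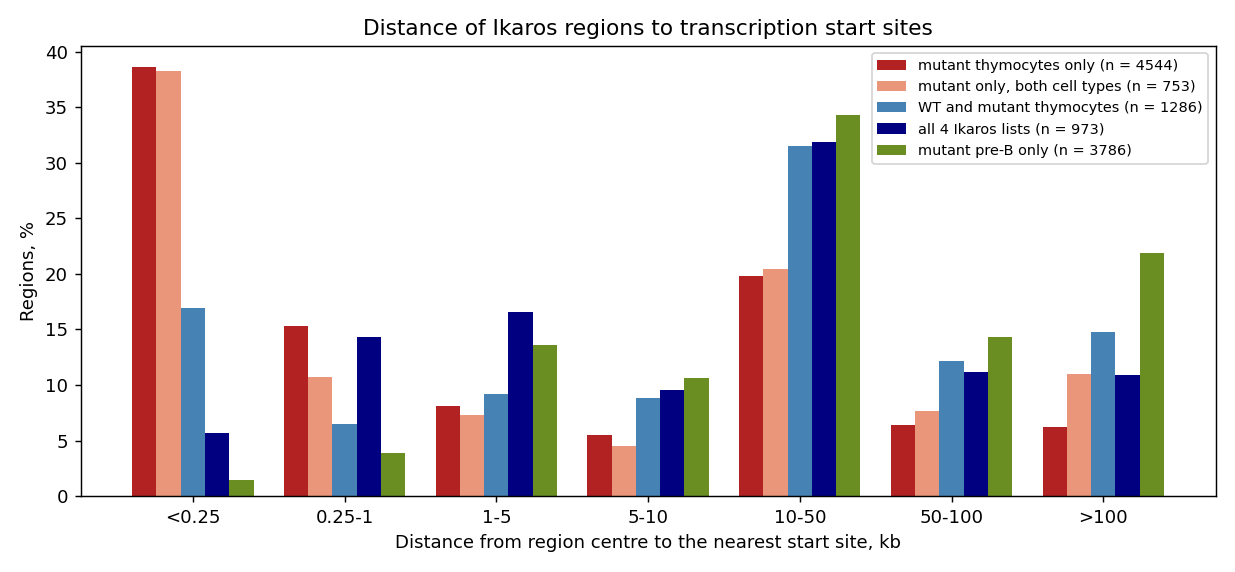
Share of regions (vertical axis, %) by distance from the region's centre to the nearest transcription start site (horizontal axis, kb), with 1 bar per class and distance bin. Both mutant-only classes that were found in thymocytes peak in the first bin, at 38.6% and 38.2%, while the mutant pre-B-only class has 1.45% there and its highest bar, 34.3%, at 10 to 50 kb.

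Regions near starts were wider than the others of the class and differed little from them in fold. The 2488 promoter regions had a median fold of 3.94 and a median width of 392 bp. The 1056 regions in a gene body away from a start (23.2%) had medians of 3.84 and 297 bp, the 332 regions within 10 kb outside a gene (7.31%) 3.94 and 289.5 bp, and the 668 regions farther away (14.7%) 3.87 and 305 bp. Among the 100 strongest regions, 75 lay in or within 1 kb of a start.

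The highest fold, 13.7, belonged to a 494 bp region (chr18:73703678-73704171) in Smad4, which encodes the common mediator of TGF-beta signalling. A 502 bp region with a fold of 11.6 (chr1:152766252-152766753) held the starts of both Arpc5 and Rgl1, a divergent pair, the latter encoding a Ral guanine nucleotide exchange factor. Regions at Hibadh (fold 9.08), Creb1 (9.05, 1892 bp), the Fto start beside Rpgrip1l (9.05), Zfp131 (8.82), Axin2 (8.82), Ap5b1 (8.74) and Ddhd2 (8.67) followed. One further region of the top 10 lay 10 bp outside Maz, with a fold of 8.73. The region at Maz lay 194 bp from the nearest start.

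The widest regions were not the strongest. A 3112 bp region covered the start of Ubtf (chr11:102316622-102319733, fold 4.19), which encodes a factor of ribosomal RNA transcription. Regions of 2995 bp at Cxxc5, 2847 bp at Zfp36l2, 2818 bp at Klf13 and 2473 bp at Ap3m2 came next, with folds of 4.12, 5.09, 4.57 and 4.18. Zfp36l2 encodes an RNA-binding protein that promotes mRNA decay and restrains the cell cycle in developing lymphocytes.

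Of 1005 microRNA hairpins in the RefSeq table, 13 overlapped a mutant thymocyte-only region and 33 lay within 1 kb of one. Regions shared by WT and mutant thymocytes overlapped 2 hairpins, and mutant-only regions of both cell types 3. The hairpins include those of let-7i, miR-484 and miR-142, whose mature forms are shown 5′ to 3′ with the seed, bases 2 to 8, in capitals.
let-7i-5p: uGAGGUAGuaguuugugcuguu
miR-484: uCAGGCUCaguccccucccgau
miR-142a-5p: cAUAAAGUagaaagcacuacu
miR-142a-3p: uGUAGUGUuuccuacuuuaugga
The let-7i hairpin lay inside a 1311 bp region (chr10:122985334-122986644) with a fold of 4.24, and the miR-484 hairpin inside a 782 bp region (chr16:14159014-14159795) with a fold of 7.29. The 2311 bp region beside Tspoap1 (chr11:87754555-87756865, fold 4.87), among the 10 widest, reached only 2 bp into the hairpin of miR-142, a microRNA of blood cells. The 4 mature forms printed share no seed. These 3 loci were chosen after their values were seen.

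Genes with a region in their body or within 10 kb numbered 4624 of 21883 protein-coding genes, or 21.1%, and for 1558 of them an annotated start lay inside a region. These genes were longer than the rest, with a median of 27720.5 bp against 17170 bp for all genes. A WT thymocyte Ikaros region also lay within 10 kb of 884 of the 4624 genes (19.1%), against 9.92% of the genes with no mutant thymocyte-only region. In 335 genes the body held 2 or more. Ppm1h, which encodes a protein phosphatase, had the most, 8 over 268368 bp, followed by the spindle checkpoint gene Mad1l1 with 6 over 312920 bp. Bcl11b, which encodes a transcription factor of T lineage commitment, had 5 over 93743 bp, and Ldlrad3, Gse1, Arid1b and Hivep3 had 5 each over longer bodies.

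Genes of T cell receptor signalling carried these regions most often of the 12 gene lists. Of 26 such genes, 22 (84.6%) had a region in the body or within 10 kb, beside the 21.1% of all protein-coding genes. The list's genes were long, at a median of 46652 bp. The exceptions were Cd28, Themis, Malt1 and Nfatc2. Of the 22 genes, 18 also had a WT thymocyte region within 10 kb, so these loci were in the WT list too. The 31 regions concerned had a median fold of 4.15, against 3.91 for the class, and 7 of them held a start of a listed gene.

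The start of Cd3g lay in a region with a fold of 5.35 (chr9:44980381-44980683), which also lies in the flank of Cd3d. The start of Cd3e had a weaker region, with a fold of 3.14 (chr9:45009394-45009744). Cd247, which encodes the zeta chain, had 4 regions with folds of 3.61 at the start and 3.24, 4.47 and 3.99 in the body. The coreceptor gene Cd4 had 3, with folds of 5.0 in the flank and 4.11 and 4.25 in the body. For the other coreceptor, regions lay in the flank of Cd8a (fold 4.45) and in and beside Cd8b1 (folds 3.20 and 5.88).

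Downstream of the receptor, the start of Zap70 had a region with a fold of 6.10 (chr1:36761582-36761856), that of Lat 5.39 (chr7:126369276-126369801) and that of Lck 4.86 (chr4:129558074-129558834), with a second Lck region of 4.46 in the flank. The highest fold of the list, 6.36, was in the flank of Ptpn22, which encodes a phosphatase that restrains this pathway. That region lay past the far end of Ptpn22, with its centre 53939 bp from the gene's start. Whether it belongs to Ptpn22 or to a neighbouring gene was not tested. Prkcq, which encodes protein kinase C theta, had 3 regions in its body, with folds of 3.29, 4.54 and 3.43. Fyn, a kinase related to Lck, had 1 region of 3.97 within 1 kb of its start. The start of Ubash3a, which encodes another restraining phosphatase family member, had 1 of 3.70.

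Of 26 T lineage transcription factors, 21 (80.8%) had a region, and 15 of these also had a WT thymocyte region within 10 kb. This list had a median gene length of 81597.5 bp. Tox2, Runx3, Zbtb7b, Tcf12 and Tcf3 had none. The 42 regions had a median fold of 3.87, which is close to that of the class. The strongest lay over the start of Tcf7, with a fold of 5.96 and a width of 1352 bp (chr11:52282048-52283399). Lef1, which encodes the sister factor of TCF1, had a 1560 bp region of 4.39 and a second of 3.69. The start of Gata3 had 1 region of 3.86, and the start of Myb 1 of 4.08. Bcl11b had 5 regions with folds from 3.21 to 4.61, the strongest of them at its upstream end.

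The Ikaros family genes themselves carried regions. Ikzf1 had 3, with folds of 3.87 at a start, 5.16 and 3.11 in the body. Ikzf3, the mutated gene, had 1 in its body with a fold of 3.92 and 1 in its flank with 5.36. Ikzf2, which encodes Helios, had 1 of 3.43 at a gene end.

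**Figure D3:**
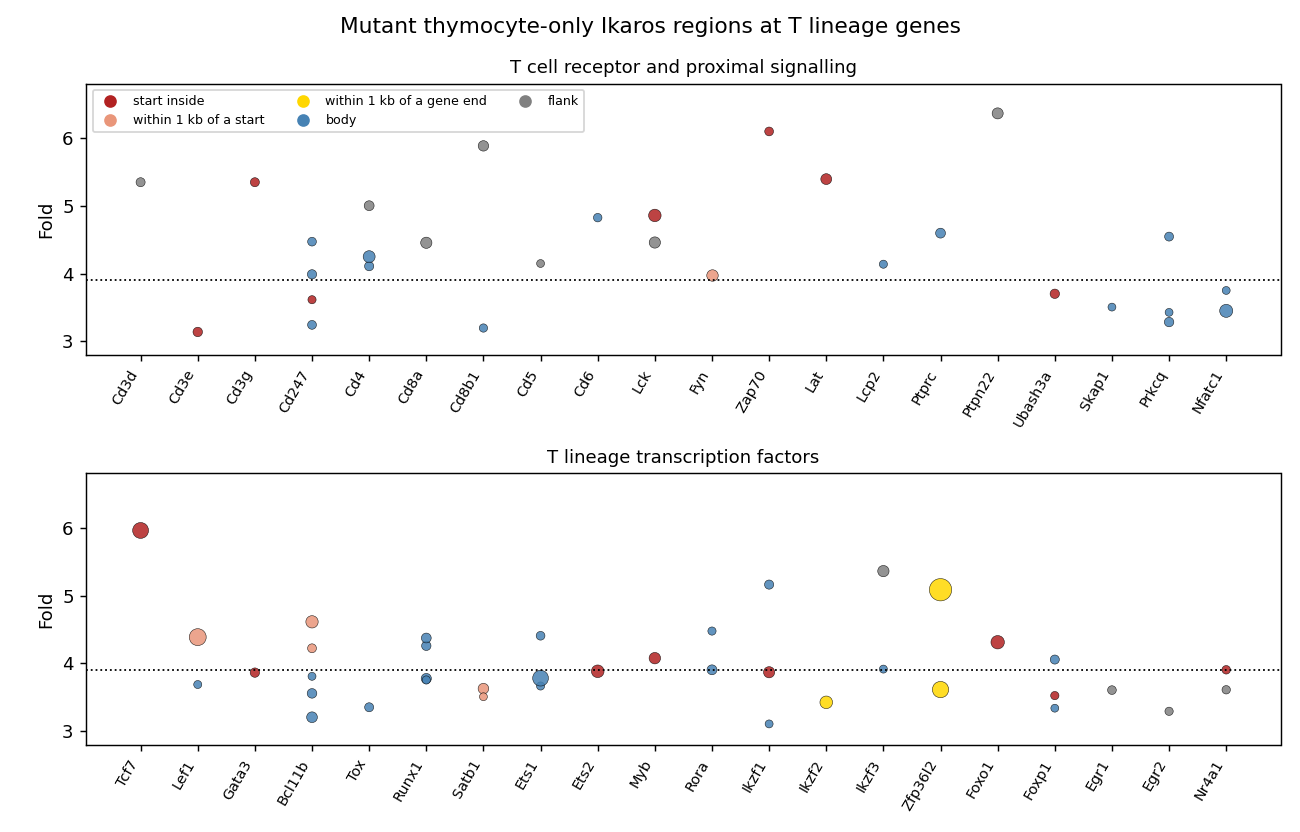
Fold of each mutant thymocyte-only region (vertical axis, fold over the caller's background) at genes of 2 lists, a few of them not shown (horizontal axis), with point size rising with region width and colour giving the position relative to the gene. The dotted line is the class median of 3.91. The regions in the flank of Ptpn22 (6.36) and at Zap70 (6.10) are highest in the upper panel and that at Tcf7 (5.96) in the lower.

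Other pathways were touched in different proportions. Of 24 cytokine receptor and JAK-STAT genes, 15 (62.5%) had a region, and 3 of the 15 had a WT thymocyte region within 10 kb. They included Stat4 (fold 4.01), Il6st (4.99 at its start), which encodes the shared receptor subunit gp130, and Il6ra (4.58), which encodes the receptor of IL-6. Of 20 apoptosis genes, 11 (55.0%) had a region and 1 of them a WT region nearby. Bcl2l11, which encodes the pro-apoptotic protein BIM, had 2 (folds 3.85 and 5.88), and the survival gene Bcl2 had 2 (3.19 and 5.17). Of 22 adhesion and migration genes, 11 had a region, among them Cxcr4 (4.89 and 3.47) and Ccr7 (3.38 and 4.42), chemokine receptors that guide thymocytes. Of 25 cell cycle genes, 12 (48.0%) had one, and of 20 nucleosome remodelling and Polycomb genes 8, of which 0 had a WT region nearby. Arid1a, a subunit of the SWI/SNF remodeller, had 3, with folds of 5.63, 3.49 and 5.48. Of 16 Notch pathway genes, 5 (31.2%) had a region, namely Notch1, Notch3, Hes5, Il2ra and Rbpj.

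Lists of other cell types had shares near or below the 21.1% of all protein-coding genes. Of 25 B lineage genes, 6 (24.0%) had a region, among them Cd79a, Irf4, Irf8, Dntt and Foxp1, the last of which is also in the T lineage list. Their median fold was 3.40. The myeloid list had 2 of 21 genes (9.52%), the NK and cytotoxic list 3 of 18 (16.7%) and the stromal, thymic epithelial and endothelial list 0 of 16. Gene length differed between lists, with a median of 4732 bp in the myeloid list and 33688 bp in the stromal list.

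High shares in the T lineage lists were not particular to the class. Regions of WT and mutant thymocytes also had their highest shares there, at 14 of the 26 receptor signalling genes (53.8%) and 11 of the 26 T lineage factors (42.3%). Any WT thymocyte region lay at 22 and 18 of these genes, and at 11 of the 25 B lineage genes (44.0%). Mutant-only regions of both cell types lay at 0 of the receptor signalling genes and 1 of the T lineage factors. Regions of mutant pre-B cells only lay at 5 and 4 of these, but at 8 of the 25 B lineage genes. For cytokine receptor and JAK-STAT genes, any WT thymocyte region was found at 4 of 24, beside 11.9% of all genes. The classes differ in number of regions, which sets how many genes each can reach, and all genes had shares of 21.1% for the mutant thymocyte-only class, 4.57% for WT and mutant thymocyte regions, 4.08% for mutant-only regions of both cell types and 10.7% for mutant pre-B-only regions.

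**Figure D4:**
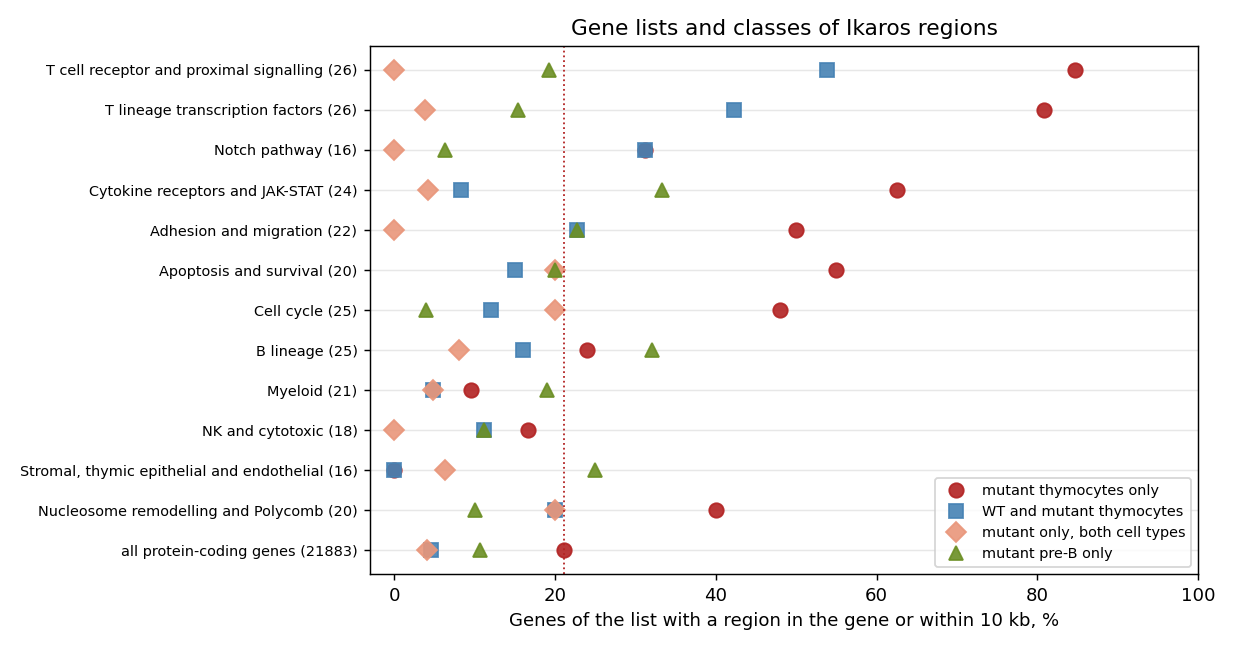
Share of genes in each list (rows, with the number of genes) that have a region of a class in the gene or within 10 kb (horizontal axis, %), with 1 symbol per class. The mutant thymocyte-only class stands at 84.6% and 80.8% in the T lineage lists and, covered by an equal symbol of another class, at 31.2% in the Notch and 0% in the stromal list; the dotted line marks its 21.1% over all protein-coding genes.

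The Aiolos lists, which the rule did not use, hardly met the class. Of the 4547 regions, 1 overlapped a region of the mutant thymocyte Aiolos list, or 0.0220%. It lay 15574 bp from Metap1 (chr3:138504957-138505250, fold 4.21). None overlapped the WT thymocyte, WT pre-B or mutant pre-B Aiolos lists, with an upper 95% exact binomial limit of 0.0811% for each. Of the 754 mutant-only Ikaros regions of both cell types, 136 (18.0%, interval 15.4 to 21.0) overlapped the mutant thymocyte Aiolos list. Seen from the Aiolos side, 150 of its 184 regions (81.5%) lay on the mutant-only regions of both cell types and 1 (0.543%) on the mutant thymocyte-only regions. The Aiolos lists were short, at 25 regions in WT thymocytes and 184 in mutant thymocytes.

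RNA of the genes near these regions was available from B lineage progenitors only, so it shows how those genes behaved in mutant cells of another lineage. Gene counts ran from 1888871 to 9048055 per library. Of the 4624 genes, 4516 were matched to a row of the count tables, and 3989 of these (88.3%) passed the count filter in pre-pro B cells and 3846 (85.2%) in pre-B cells. Among genes with no such region nearby the shares that passed were 47.5% and 44.1%, and among genes with a start inside a region 96.6% and 95.3%. Genes at these thymocyte regions thus passed the filter more often in B progenitors than genes without one. Whether the 3 libraries of a group came from separate mice is not stated in the labels, so p-values measure the spread between these libraries.

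In pre-B cells, 658 of the 3846 tested genes near the regions changed between homo and WT (17.1%), with 280 higher and 378 lower. By edgeR's quasi-likelihood F test at a Benjamini-Hochberg adjusted p under 0.05, the background over all 11411 genes was 15.9%, 7.42% higher and 8.45% lower. The median log2 fold change was 0.00 near the regions and 0.02 over all genes. The share near the regions was thus close to the background. Leaving out WT replicate 1, 2 or 3 brought the count to 375, 371 or 406 (9.67%, 9.57% or 10.5%), beside 9.11%, 9.20% or 9.98% of all genes. With library size as a covariate it was 1288 (33.5%), beside 30.3% of all genes. In pre-pro B cells 938 of 3989 genes changed (23.5%), 483 higher and 455 lower, beside a background of 22.4%, 12.0% higher and 10.4% lower. The homo effect differed between the 2 stages for 688 of 4028 genes (17.1%), beside a background of 14.5%. Of these, 233 differences were positive and 455 negative, beside backgrounds of 5.17% and 9.37%.

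Of the genes with 2 or more regions in the body, 29.1% of 296 were called in pre-B cells, beside 15.9% of all genes. In pre-pro B cells 30.5% of 318 were called, beside 22.4% of all genes. The difference from other genes was not tested, and such genes are long.

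Library depth moved with genotype in pre-pro B cells, and the direction of the calls differed by RNA level. The 3 homo libraries held 8592557 to 9048055 counts and the WT libraries 5443344 to 6492192. Of the 286 tested genes near the regions with a mean above 300 CPM (counts scaled to library size), 126 were called lower and 4 higher. Of the 2074 with a mean from 10 to 100 CPM, 340 were called higher and 83 lower. All genes tested had the same split, at 247 lower and 8 higher above 300 CPM. Actb had 2335 to 2650 counts in each of the 9 pre-pro B libraries although their totals differed. With library size as a covariate, 77 genes near the regions were called (1.93%), beside 1.75% of all genes. Sex moved with genotype as well, since 0 of 3 WT and 2 of 3 homo libraries lacked Xist, and 200 genes (5.01%) were called with that as a covariate, beside 4.96% of all genes. In pre-B cells 0 of 3 WT and 1 of 3 homo libraries lacked Xist. The pre-pro B count was 377 or 397 when WT replicate 1 or 2 was left out (9.0% and 9.96% of all genes), and 427 or 477 for homo replicate 2 or 3 (10.1% and 11.4% of all genes). Depth was uneven in pre-B cells too. Homo replicate 3 held 1888871 counts, homo replicates 1 and 2 6212714 and 6257527, and the WT libraries 5556696 to 6187816. Near the regions the median pre-B log2 fold change was -0.09 below 10 CPM and 0.16 above 300 CPM. Over all genes tested it was -0.04 and 0.17. Refits of single genes with library size or Xist status as a covariate are among the alternatives counted below. The part of depth and sex in the calls of either stage was not separated from that of genotype. In pre-pro B cells depth moved with genotype, so their parts cannot be told apart. Single genes are described in pre-B cells first.

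Of the T cell receptor signalling genes with a region, 12 were tested in pre-B cells, where 2 rose and 3 fell. Over all genes tested at this stage, 7.42% rose and 8.45% fell. The median log2 fold change of the 12 genes was 0.18, against 0.02 for all genes. Fyn stood at 84.7, 82.1 and 88.3 CPM in the WT libraries and at 174.5, 160.7 and 166.3 in the homo libraries. The groups did not overlap, and Fyn rose by 0.99 ± 0.09 (log2 fold change ± SE, n = 3 and 3, edgeR adjusted p = 7.8e-05). In pre-pro B cells Fyn was lower in the homo group, at 459.8, 465.4 and 439.7 against 632.6, 599.0 and 560.8 CPM, a call that ended in 9 of its alternatives, among them each WT or homo replicate left out. The difference between the stages was 1.41 ± 0.17 (edgeR adjusted p = 1.83e-05).

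Prkcq stood at 10.4, 11.7 and 13.1 CPM in WT pre-B libraries and at 47.9, 35.2 and 42.8 in homo pre-B libraries. It rose by 1.85 ± 0.19 (edgeR adjusted p = 0.00014). The fallers in pre-B cells were Lcp2, Lck and Ubash3a. Lcp2, which encodes the adaptor SLP-76, had 12.5, 15.1 and 14.8 CPM in WT and 5.86, 6.51 and 4.10 in homo libraries and fell by 1.27 ± 0.22 (edgeR adjusted p = 0.00298). Lck had 40.6, 39.5 and 41.9 CPM in WT and 22.5, 27.5 and 19.9 in homo libraries, and its call ended when any 1 WT replicate or homo replicate 1 was left out, under the replicate block and with Xist status as a covariate. For Ubash3a, at a mean of 38.4 CPM in WT and 20.5 in homo libraries, leaving out WT replicate 3 or homo replicate 1 ended the call.

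In pre-pro B cells 21 of the receptor signalling genes were tested, and 8 rose and 7 fell, beside 12.0% and 10.4% of all genes. Those that rose include Cd247, Cd5, Cd6, Prkcq, Ptpn22, Skap1 and Zap70, several of them with low levels. Each of these named calls was lost with library size as a covariate, and those of Ptpn22 and Prkcq were lost in 10 and 8 of 15 alternatives. Zap70 had 4.10, 2.95 and 4.02 CPM in WT and 7.37, 14.2 and 14.8 CPM in homo pre-pro B libraries, where it was 1.67 ± 0.31 higher (edgeR adjusted p = 0.00558). Those that fell include the abundant Ptprc, Cd4 and Fyn, all of whose calls were also lost with library size, and with Xist status, as a covariate.

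Of the T lineage transcription factors with a region, 17 were tested in pre-B cells and 3 rose and 2 fell. The shares over all genes were 7.42% and 8.45%. Satb1, which encodes a chromatin organiser of thymocytes, had 126.4, 149.2 and 145.8 CPM in WT and 256.7, 242.4 and 320.9 in homo pre-B libraries and rose by 0.97 ± 0.14 (edgeR adjusted p = 0.00139). Ets2, an ETS family factor, had 107.5, 113.1 and 111.3 CPM in WT and 39.6, 27.6 and 34.5 in homo libraries and fell by 1.70 ± 0.16 (edgeR adjusted p = 0.000106). Ets2 was called higher in pre-pro B cells, by 0.80 ± 0.25 (edgeR adjusted p = 0.0389), which 10 of 15 alternatives ended. The WT and homo pre-B values of either gene did not overlap, and both pre-B calls held in all 15 alternatives run for them. Tcf7 had means that did not pass the test at either stage, with 9.27, 12.9 and 11.4 CPM in WT and 9.82, 10.9 and 8.78 in homo pre-B libraries. Bcl11b, with the most regions of the list, had 3, 6, 1 and 2 counts in all in the WT and homo pre-pro B and the WT and homo pre-B groups and was not tested. Ikzf1 and Ikzf3 did not pass the test in pre-B cells. Ikzf1 had a log2 fold change of -0.30 ± 0.08 in pre-pro B cells (edgeR adjusted p = 0.0236), a call lost in 7 of 15 alternatives. The genotype of the Ikzf3 transcripts was not examined, as the tables hold counts per gene.

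Cytokine receptor and JAK-STAT genes moved in both directions. Of 15 tested in pre-B cells, 4 rose and 2 fell, beside 7.42% and 8.45% of all genes. Stat4, which encodes a signal transducer of IL-12, had 13.7, 12.9 and 15.2 CPM in WT and 64.8, 58.9 and 60.3 in homo libraries and rose by 2.15 ± 0.14 (edgeR adjusted p = 1.83e-05). Il6st rose by 1.33 ± 0.16 (edgeR adjusted p = 0.000422), from 43.8, 38.4 and 39.0 CPM to 115.5, 101.3 and 84.3. Its partner Il6ra went the other way, with 13.4, 11.1 and 12.2 CPM in WT and 0.317, 0 and 0.586 in homo libraries, which amount to 222 against 3 counts. Il6ra was called lower (edgeR adjusted p = 0.000158). In pre-pro B cells Il6ra stood at a mean of 118.5 CPM in WT and 127.4 in homo libraries and did not pass the test.

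Among the 10 called genes near the regions with the largest fitted changes in pre-B cells were falls of genes whose start lay in a region. The same 10 held rises, of Alox12 (5.02), Dusp4 (4.51), Hemgn (4.30) and Gyltl1b (4.12). The Alox12 groups overlapped, at 0, 0 and 0.161 CPM in WT and 3.96, 2.02 and 0 in homo libraries, with 1 count in WT. Axin2 and Rasgrp1, described below, were not among the 10. Whether a region at the start goes with the direction of the RNA change was not tested. Zscan12, which encodes a zinc finger protein, had a region of fold 5.09 at its start and 18.53, 15.98 and 18.21 CPM in WT against 0.475, 0.620 and 0.586 in homo pre-B libraries. It fell by 4.93 ± 0.28 (edgeR adjusted p = 8.5e-06), while its pre-pro B means were 15.4 CPM in WT and 16.7 in homo libraries, and the effect differed between the stages by -5.02 ± 0.27 (edgeR adjusted p = 3.72e-09). Galnt10, an enzyme of mucin-type glycosylation, had regions of fold 3.75 at a start and 4.13 in the body. It had 93.3, 97.3 and 87.2 CPM in WT and 2.06, 3.57 and 0.586 in homo pre-B libraries, and fell by 5.20 ± 0.36 (edgeR adjusted p = 2.27e-05).

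Rgs10, a regulator of G protein signalling with a region of 3.61 at its start, fell by 4.58 ± 0.37 (edgeR adjusted p = 4.66e-05), from 24.1, 28.6 and 32.9 CPM to 1.11, 1.40 and 0.586. Klc3, which encodes a kinesin light chain and had a region of 6.18 at its start, had 11.8, 9.88 and 9.67 CPM in WT and 0.475, 0.620 and 0 in homo pre-B libraries and fell by 4.38 ± 0.64 (edgeR adjusted p = 0.00127). Axin2, with a fold of 8.82 one of the 10 strongest regions, had 7.03, 7.72 and 7.25 CPM in WT and 0.792, 0.620 and 0 in homo pre-B libraries. It fell by 3.53 ± 0.40 (edgeR adjusted p = 0.000269). Rasgrp1, which encodes a Ras activator downstream of antigen receptors, had a region of 5.52 at its start and stood at 247.8, 235.6 and 263.9 CPM in WT against 81.5, 47.6 and 58.6 in homo pre-B libraries, a fall of 1.98 ± 0.21 (edgeR adjusted p = 0.000179). Rasgrp1 went the other way in pre-pro B cells, from a mean of 1.79 to 9.39 CPM, by 2.34 ± 0.42 (edgeR adjusted p = 0.00559), a call lost with library size as a covariate. Genes that rose include Dusp4, a phosphatase of MAP kinases with a region of 3.53 in its body, which went from a mean of 1.51 to 33.3 CPM, by 4.51 ± 0.41 (edgeR adjusted p = 7.08e-05). None of the pre-B calls of Zscan12, Galnt10, Rgs10, Klc3, Axin2, Rasgrp1 and Dusp4 was lost in the 15 alternatives run for each.

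**Figure D5:**
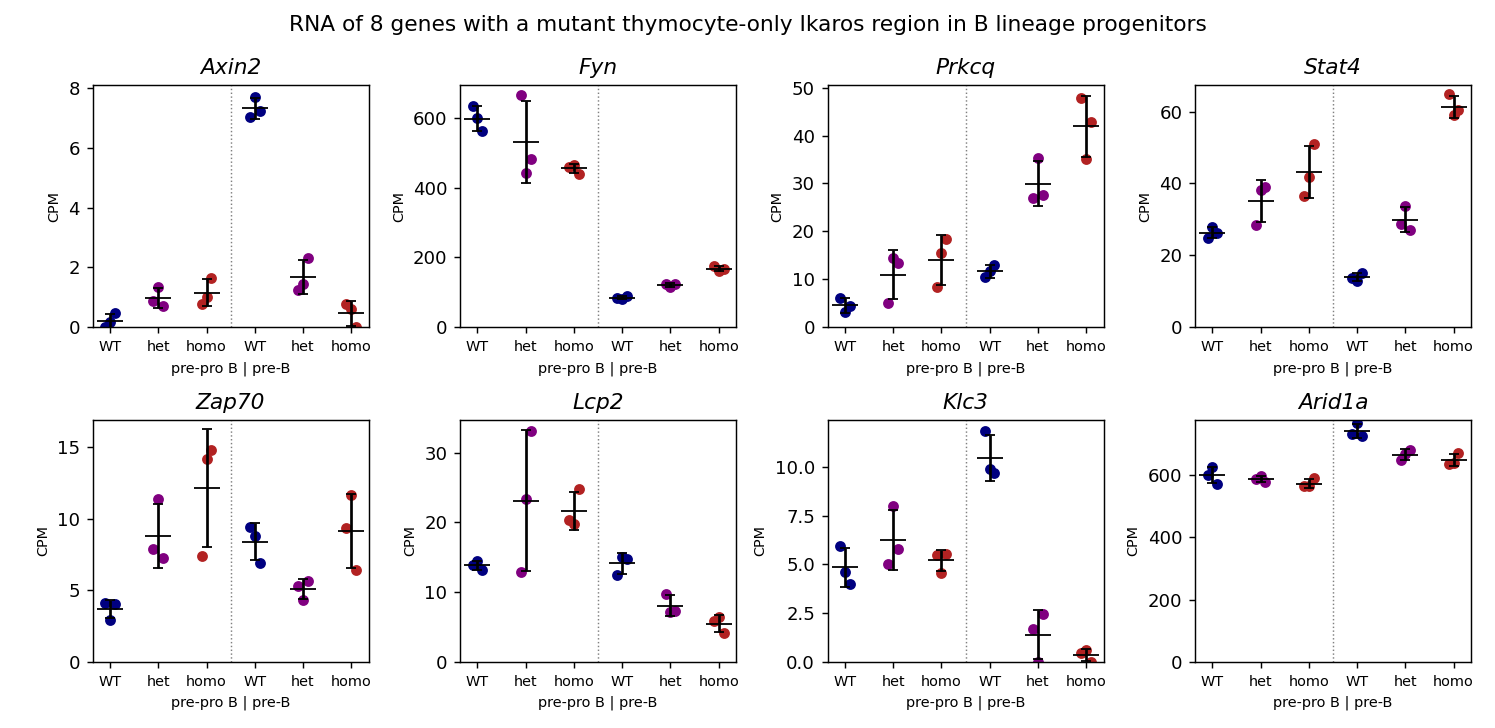
Normalised RNA level (CPM, vertical axis) of 8 genes with a mutant thymocyte-only region in each library of WT, heterozygous and homozygous pre-pro B and pre-B cells (horizontal axis), with 1 point per library and the mean and SD (n = 3) in black. In pre-B cells Fyn, Prkcq and Stat4 are higher in all 3 homo libraries than in the WT libraries and Axin2, Lcp2 and Klc3 lower, while Zap70 overlaps.

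Other genes at the 10 strongest regions had smaller fitted changes in pre-B cells than Axin2. Smad4, at the highest fold, had means of 139.6 CPM in WT and 131.1 in homo pre-B libraries and 149.6 and 153.0 in pre-pro B libraries, and passed the test at neither stage. Arpc5 did not pass in pre-B cells and had a log2 fold change of -0.31 ± 0.08 in pre-pro B cells (edgeR adjusted p = 0.0236), a call lost in 8 of 15 alternatives. In pre-B cells Rgl1, on the other side of the same region, was 0.54 ± 0.10 higher (edgeR adjusted p = 0.00581). Creb1 was called higher by 0.57 ± 0.16 (edgeR adjusted p = 0.0374), and that call was lost in 7 of 15 alternatives, among them each WT replicate left out. Ddhd2 was 0.52 ± 0.11 higher in pre-B cells (edgeR adjusted p = 0.0111), a call lost without WT replicate 2 or 3. Hibadh was called lower in pre-B cells (edgeR adjusted p = 0.0427), which 10 of 15 alternatives ended, and Ap5b1 was called lower in pre-pro B but not in pre-B cells (edgeR adjusted p = 0.00673). Fto had a log2 fold change of -0.47 ± 0.11 in pre-B cells (edgeR adjusted p = 0.0158), a call that was also lost without each WT replicate. Rpgrip1l did not pass at either stage. Zfp131 and Maz did not pass the test at either stage.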

How the data were processed

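Ikaros and Aiolos ChIP-seq peak lists (4 of each, 1 library per list) and RNA count tables (18 libraries) were used as deposited. The authors' broad peak lists hold 1 deposited score and 1 fold (enrichment over background, their ratio) per region, with its p-value and q-value on the −log10 scale; the control and thresholds are not given in the sources used here. The authors' gene tables hold raw read counts, as deposited, and 29.8% to 40.1% of a library's reads fell in the entry for no gene, which was left out. Per the submitters' processing notes, STAR 2.7.0, HISAT2 2.1.0, MACS2 2.1.1 and the mm10 build were used, with no role given. The regions and gene lists were chosen with earlier results of these data known.

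Regions were compared by overlap of at least 1 bp in Python 3.11.15 and placed on RefSeq genes (GRCm38.p6). Start sites came from the RefSeq promoter table, which covered 17491 genes; for the other 4392 either gene end stood in. Intervals are 95% exact binomial (scipy 1.17.1) and cover counting error only. Counts were tested in R 4.3.3 with edgeR 4.0.16 (filterByExpr, TMM, robust quasi-likelihood F test, adjusted p under 0.05), within each stage over its 9 libraries and across stages over 18, after a check on simulated data; DESeq2 1.42.0 was an alternative. Standard errors were derived from the fold change and the F value. The CPM given use TMM over all 18 libraries. Symbols matched RefSeq for 20541 of 24459 rows, 859 of them by synonym. Genes were named by rule: the 10 highest folds, the 5 widest regions, the listed genes, up to 10 largest called changes per RNA contrast, up to 10 genes with a start inside, and the 5 genes with most regions. The 8 genes plotted for RNA were chosen after their values were seen. A few listed genes are counted but not reported here by name.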

Additional observations from a re-analysis of the deposited data

Results flagged for a closer look

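The homo effect on RNA differed between pre-B and pre-pro B cells for the genes below, all but Sla named by rule, by the edgeR interaction test with a Benjamini-Hochberg adjusted p under 0.05 over all genes. Values are log2 differences, the effect in pre-B cells minus that in pre-pro B cells. Depth differed between homo and WT pre-pro B libraries, and homo pre-B replicate 3 was the shallowest of all libraries. These differences were also refitted with library size as a covariate, and losses are named below. The part of depth in these values was not separated from that of genotype.

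Among the T cell receptor genes, Fyn stood at 1.41, Lck at -1.31, Lcp2 at -1.87, Ubash3a at -1.31 and Zap70 at -1.46. Among the T lineage factors, Satb1 stood at 0.69, Ets2 at -2.51 and Rora at -5.17; Rora had 0 counts in homo and 11 in WT pre-B cells, so its fitted value depends on the prior count. Among the cytokine genes, Stat4 stood at 1.47, Jak1 at 0.62, Il6st at 0.72, Il21r at 0.87, Stat5a at -0.91, Il15ra at -1.24 and Il6ra at -5.82, the last with 3 counts in homo pre-B cells.

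Adhesion genes showed differences of 0.78 for Cd44, 1.24 for Itgb3 and -1.67 for Ccr7. Survival and cell cycle genes showed -0.99 for Bak1, -1.36 for Bcl2, -1.09 for Tnfrsf1b, -0.61 for Cdk2 and -0.97 for Cdkn2c. Id2 differed by -1.49 and Mta1 by 0.57.

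Of the genes at the strongest regions or with the most regions, Axin2 differed by -5.77, Ddhd2 by 0.49, Fto by -0.56, Gse1 by -0.78 and Sla by 0.72. Sla was chosen after its values were seen.

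Genes named for the size of their RNA change were Alox12 (6.5, with 1 count in WT pre-B cells), Gyltl1b (3.75, with 2 such counts), Arc (-4.95), Arhgef39 (-4.5), Avil (-6.71, with 5 counts in WT pre-pro B cells), Dusp4 (3.68), Galnt10 (-5.14), Hemgn (2.63), Hist1h1b (-3.25), Klc3 (-4.46), Rasgrp1 (-4.32), Rgs10 (-4.05), Sytl2 (-3.43) and Zscan12 (-5.02).

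Some of these differences were lost under an alternative. That of Zap70 was lost with library size as a covariate and without WT pre-pro B replicate 2, homo pre-pro B replicate 3 or WT pre-B replicate 1. That of Hist1h1b was lost with library size as a covariate and without WT pre-pro B replicate 2. Leaving out WT pre-pro B replicate 3 ended the call for Alox12, WT pre-pro B replicate 1 that for Jak1, and WT pre-pro B replicate 2 or homo pre-pro B replicate 3 that for Gse1. Ddhd2 was lost without the count filter.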

How the results depend on the processing

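Limits on the q-value or the fold shrank the class. With regions of a −log10 q-value of at least 5 only, 1132 members remained in the count, with a median fold of 5.0, a median width of 396 bp, 76.1% in gene bodies, 60.7% at starts, 0% on Aiolos regions, 1377 nearby genes, 12 receptor signalling genes and 6 T lineage factors. With a fold of at least 5 these were 566, 5.56, 418.5 bp, 77.4%, 64.0%, 0%, 728, 7 and 5. With the q limit applied to all 4 Ikaros lists, an alternative added after seeing the data, they were 1748, 5.07, 433 bp, 73.9%, 56.4%, 0.572%, 1983, 14 and 7. When only overlaps of at least 50% removed a region, 5208 were kept, the median fold was 3.97, the width 380 bp and the Aiolos share 0.269%; an Aiolos overlap of at least 50% of the member gave 0%. The promoter share was 62.1% within 5 kb and 47.6% with the promoter table's starts only, and 81.1% lay in any annotated gene; the latter 2 were added after seeing the data. A window of 50 kb reached 8196 genes, and 1442 of the 6295 tested were called in pre-pro B cells (22.9%, beside 22.4% of all genes). Leaving out regions on scaffolds and Y, or removing members within 1 kb of another list's region, moved none of these counts by 1.5 times.

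With library size as a covariate, 77 genes near the regions were called in pre-pro B and 1288 in pre-B cells (1.93% and 33.5%, beside 1.75% and 30.3% of all genes); with Xist status, added after seeing the data, 200 in pre-pro B cells (5.01%, beside 4.96%). Leaving out 1 library gave 377 to 1284 in pre-pro B cells (9.4% to 32.0%, beside 9.0% to 29.5% of all genes). In pre-B cells it gave 371 to 775 (9.57% to 20.0%, beside 9.2% to 18.1% in the same fits). For the difference between stages it gave 524 to 826 (12.9% to 20.4%, beside 10.7% to 17.1%). With the replicate block the counts were 958, 394 and 616 (24.0%, 10.2% and 15.3%, beside 22.5%, 9.86% and 12.8% of all genes). Whether the replicate numbers pair the libraries was left undecided. At the pre-pro B stage, correlations of same-numbered WT and homo libraries ran from -0.0037 to 0.076. Differently numbered ones ran from -0.0520 to 0.0534. For pre-B libraries these ranges were -0.0292 to 0.112 and -0.129 to 0.0970. With 3 libraries per group, such overlapping ranges neither show nor exclude pairing, and pairing between stages was not checked. Myb, not called in pre-B cells, was -0.38 (adjusted p = 6.57e-05) and its difference between stages -0.66 (adjusted p = 0.000358) with library size as a covariate; the cause was not tested. One ChIP library per list limits every statement on the regions.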
